A study of Mus musculus with 4 samples.

Results

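Solute carriers are membrane proteins that move nutrients, metal ions, anions and metabolites across the surface of a cell or between its compartments. They were followed here in mouse liver at the level of mRNA. A gene was taken as a member where its annotated symbol was Slc followed by a digit. The Slc22, Slc25 and Slc27 families and Slc2a2, Slc10a1, Slc37a4 and Slc40a1, which serve drugs and carnitine, mitochondria, fatty acids, glucose output, bile acid uptake and iron export, were left out. This gave 202 of 12393 named genes, read by 319 probesets. A name beginning with Slc does not place a protein at the cell surface. 48 of the 202 belong to families or are genes known to work inside the cell, such as the Golgi nucleotide sugar carriers, and 3 are not carriers at all (Slc9a3r1, Slc9a3r2 and Slc4a1ap, which are adaptors or neighbours of carriers), so the genes are called solute carriers and not plasma membrane carriers below.

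Liver RNA of male mice aged 12-20 weeks was pooled within a group and hybridised to 1 Affymetrix MOE430A array per group, so every value below comes from 1 array and no error or test across mice can be given. The groups were wild-type mice (strain 129S1/SvImJ) on normal food, wild-type mice on the same food with 0.1% Wy14643, a synthetic agonist of PPARα, for 5 days, and PPARα-null mice (129S4/SvJae) on either food. The design gives 5 mice per group, but the study's account of the pooling gives a range, so a pool may hold fewer. Genotype and strain label changed together and cannot be told apart. The null allele was a germline one, so PPARα was missing from every cell of the liver and not from hepatocytes alone.

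PPARα is a nuclear receptor that fatty acids and fibrate-like drugs activate, and in the liver it governs the burning of fatty acids and the making of ketone bodies. Solute carriers set what enters and leaves the hepatocyte while this happens. Ketone bodies and lactate pass through monocarboxylate carriers, amino acids enter through sodium-coupled carriers for nitrogen disposal and glucose production, and metal carriers load the liver with zinc, iron and copper. Nucleotide sugar carriers feed the glycosylation of secreted proteins inside the Golgi.

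Values are GCRMA intensities on a linear scale, and ratios are given on the log2 scale or as folds. A gene stood as higher or lower when its ratio reached 1.5-fold, which is 0.58 on the log2 scale. The background was 13.5, the 90th percentile of 65 probesets of genes taken as not expressed in liver. Some of those genes still read above it, such as Syt1, at 33.3 on the wild-type control array and above background on all 4 arrays. A gene was counted in a comparison when at least 1 of the 2 arrays was above background. 106 of the 202 genes were above background on at least 1 array, 88 on all 4 arrays, and 96 on none. Levels of different genes were not compared, because probesets bind with different strength.

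The 4 arrays were alike in the share of all probesets above background, between 51.7% and 52.5%. Ppara itself read 847, 1250.1, 326 and 428 on the 4 arrays, given throughout in the order control and Wy14643 for wild-type mice, then control and Wy14643 for PPARα-null mice, so signal remained in the null mice at a lower level. Where the probeset sits relative to the deletion is not given in the sources used here. All 8 measured hepatocyte markers were above background on every array, but 3 of them (Cps1, 2.12-fold, Ahsg, 1.61-fold, and Fgb, 1.54-fold) were lower with Wy14643 in wild-type mice, where the median log2 ratio of the 8 was -0.35, and none in PPARα-null mice, where it was 0.01. Summed Kupffer cell markers (8 of 10 above background, with Cd68 and Marco below it on every array) read 1096, 433, 1307 and 667 in the same order, and were thus lower on Wy14643 in both genotypes. Summed sinusoidal endothelial markers read 1626, 950.3, 1742 and 842. In wild-type mice 2 of their 8 counted genes were lower (Fcgr2b, 828 against 365, and Clec4g, 315 against 152), with a median log2 ratio of -0.30, and in PPARα-null mice 5 of 8 were lower, with a median of -0.76. Summed stellate cell markers read 2267, 1160.3, 2666 and 2867, with 4 of 6 counted genes lower in wild-type mice and a median of -0.86. The part of these cell types in the solute carrier values was not tested, and fewer cells of a type and less RNA per cell cannot be told apart in whole liver.

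In wild-type mice more solute carrier mRNAs were lower than higher on Wy14643. Of 101 genes counted, Wy14643 gave 9 above and 32 below the control diet, and 60 lay between. Over all 7454 genes counted, 15.2% were higher and 16.3% were lower, against 8.91% and 31.7% of the solute carriers. The median log2 ratio was -0.23 for the solute carriers and 0.02 for all genes. At 2-fold, 4 were higher and 23 lower, against 522 and 570 of all 7454 genes (7.65% for the lower). With only genes above background on both arrays counted, 9 were higher and 27 lower, against 15.2% and 16.3% of 6682 genes. With 32 added to every intensity, which damps the ratios of dim genes, 6 were higher and 20 lower, against 10.5% and 10.3% of all genes.

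Slc16a1, the monocarboxylate carrier for lactate, pyruvate and ketone bodies, had the highest ratio. Its intensity was 1467 in wild-type control mice, 7163 in wild-type mice fed Wy14643, 1618 in PPARα-null control mice and 1350.0 in PPARα-null mice fed Wy14643. Only the wild-type Wy14643 array stood apart, 4.88-fold above its control. Slc48a1, a heme carrier of endosomes and lysosomes, read 24.1, 91.4, 27.7 and 21.9 on the 4 arrays and was 3.79-fold higher in wild-type mice, but its other probeset read 32.4, 29.7, 32.4 and 34.5 and lay flat. Slc4a4, a sodium bicarbonate cotransporter, read 227, 487, 187 and 238, a 2.15-fold difference in wild-type mice that its other 2 probesets above background shared at 3.30- and 2.40-fold. Slc20a2, a sodium phosphate cotransporter, read 205, 437, 156 and 174 and was 2.13-fold higher, and its other probeset was 2.07-fold higher in wild-type and 1.56-fold lower in PPARα-null mice. The remaining genes above the threshold were the Golgi carriers Slc35a3 (UDP-N-acetylglucosamine, 1.94-fold) and Slc35c1 (GDP-fucose, 1.53-fold), the ascorbate carrier Slc23a2 (1.92-fold), the potassium chloride cotransporter Slc12a7 (1.51-fold) and the zinc exporter Slc30a1 (log2 ratio 0.59). Values close to the threshold on its lower side were those of Slc35e1, 1.52-fold lower and counted, and Slc35c2, 1.49-fold lower and not counted.

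The lowest ratio was that of Slc3a1, the heavy subunit of the cystine and dibasic amino acid carrier. It read 158 in wild-type control mice and 13.8 in wild-type mice fed Wy14643, just above background, against 68.0 and 40.7 in PPARα-null mice. Thus it was 11.4-fold lower with Wy14643 in wild-type mice. Slc39a14, which takes up zinc and iron not bound to transferrin, read 279, 36.8, 277 and 240.5 on the 4 arrays in the same order, so that the wild-type Wy14643 array was 7.56-fold below its control and the other 3 were close together. Its dimmer probeset read 28.1 on the wild-type control array and lay below background on the wild-type Wy14643 array. The sodium dicarboxylate carrier Slc13a3 read 661, 129, 1273 and 1826 and the nucleoside carrier Slc29a1 read 626, 135, 672 and 792. In both, the wild-type Wy14643 array was the lowest and the PPARα-null Wy14643 array the highest. Slc13a3, read by a probeset that may bind several transcripts, was 5.14-fold lower in wild-type mice by it and 2.13-fold lower by its other bright probeset, and Slc29a1 was 4.65-fold lower. The adaptor Slc9a3r1, which anchors carriers at the cell surface, read 477, 78.7, 558 and 359.5, and all 3 of its probesets were lower in wild-type mice, by 2.07- to 6.05-fold. Slc20a1, the other sodium phosphate cotransporter of its family, read 64.5, 17.1, 127 and 109, Slc17a2 read 839.9, 225, 980.0 and 793 and Slc66a2 read 836, 237, 814 and 742. These 3 were 3.77-, 3.73- and 3.53-fold lower in Wy14643-fed wild-type mice, with a log2 ratio of -0.998 by the other probeset of Slc17a2.

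**Figure D1:**
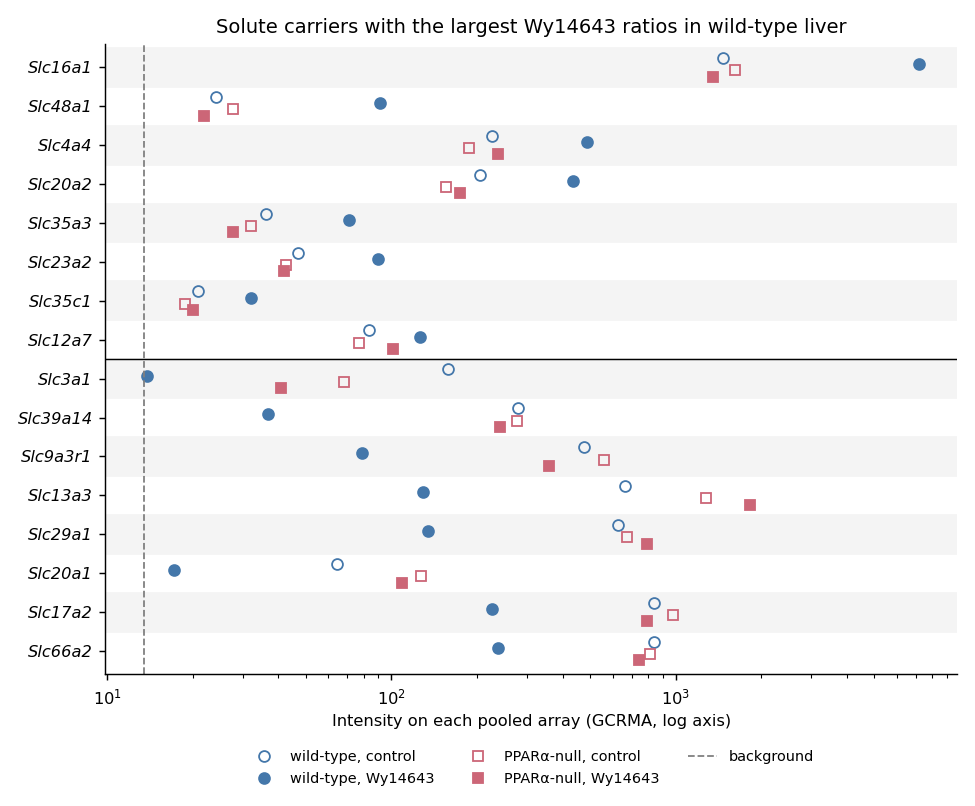
Intensity (log axis) of the 8 solute carriers furthest up and the 8 furthest down in Wy14643-fed wild-type mice against their controls, with 1 point per pooled array and the background as a dashed line. Filled blue points (wild-type mice fed Wy14643) lie to the right of the other 3 arrays in the upper 8 genes and to the left in the lower 8, and Slc3a1 reads 13.8 there, next to the background of 13.5.

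Promoter sequence is shown for 4 genes that differed with Wy14643 feeding in wild-type mice, 2 upwards and 2 downwards, because PPARα binds DNA with its partner RXR at repeats of AGGTCA. The 250 bases before the outermost annotated start were taken from RefSeq on GRCm38.p6, at chr3:104638414-104638663 for Slc16a1 (plus strand), chr2:92460519-92460768 for Slc35c1 (minus strand), chr2:129198523-129198772 for Slc20a1 (plus strand) and chr3:135825029-135825278 for Slc39a8 (plus strand). They are written 5′ to 3′ along the gene, and capitals mark AGGTCA or, where it lies on the other strand, TGACCT.
Slc16a1: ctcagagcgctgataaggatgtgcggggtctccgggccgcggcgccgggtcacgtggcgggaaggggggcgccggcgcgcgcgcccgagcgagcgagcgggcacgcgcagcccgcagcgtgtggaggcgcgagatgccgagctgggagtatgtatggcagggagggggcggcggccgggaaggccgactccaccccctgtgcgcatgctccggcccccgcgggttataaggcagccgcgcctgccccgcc
Slc35c1: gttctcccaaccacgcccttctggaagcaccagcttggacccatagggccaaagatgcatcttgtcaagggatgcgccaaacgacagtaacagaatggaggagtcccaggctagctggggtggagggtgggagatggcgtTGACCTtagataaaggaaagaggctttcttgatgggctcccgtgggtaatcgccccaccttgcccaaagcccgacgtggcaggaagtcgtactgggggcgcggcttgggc
Slc20a1: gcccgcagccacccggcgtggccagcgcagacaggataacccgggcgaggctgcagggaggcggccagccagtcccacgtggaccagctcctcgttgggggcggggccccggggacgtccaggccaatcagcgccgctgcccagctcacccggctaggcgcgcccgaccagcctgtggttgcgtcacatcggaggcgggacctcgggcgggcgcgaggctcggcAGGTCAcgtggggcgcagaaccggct
Slc39a8: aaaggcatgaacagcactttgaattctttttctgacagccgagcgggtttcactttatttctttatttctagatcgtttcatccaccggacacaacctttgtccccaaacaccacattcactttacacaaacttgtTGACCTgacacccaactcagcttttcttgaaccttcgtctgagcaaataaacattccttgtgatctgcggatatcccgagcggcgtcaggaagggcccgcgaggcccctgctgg
The window of Slc16a1 held no AGGTCA on either strand. That of Slc35c1 held 1 on the strand opposite to the one written, beginning 110 bases before the start. The window of Slc20a1 held 1 on the written strand at 26 bases, and that of Slc39a8 held 1 on the opposite strand at 114 bases. Of the solute carriers above or below the threshold in wild-type mice, 32 had a window in the table and 6 of these held the motif (Slc11a1, Slc17a1, Slc20a1, Slc2a9, Slc35c1 and Slc39a8), against 3 of 47 solute carriers between the thresholds and 3729 of 27025 genes in all (13.8%). Over every annotated start, which gives some genes several windows, 11 of the 32, 5 of the 47 and 4260 of the 27025 genes held it. The pair AGGTCA, any 1 base, AGGTCA, the full element, was on neither strand in any window of a solute carrier, and 10 genes of the table held it before their outermost start. The 4 windows shown were not drawn at random, and they held AGGTCA more often than the 32 did. Those of Slc3a1 and Slc13a3, which are not shown, held no AGGTCA. The matches describe letters within a short window only.

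The family counts below stand beside 15.2% higher and 16.3% lower over all genes counted in wild-type mice. Among substrate families, the amino acid carriers were above background for 11 of 34 genes. The 10 counted in wild-type mice had a median log2 ratio of -0.48 with 5 lower and none higher on Wy14643. Besides Slc3a1, the glutamine carrier Slc38a3 read 3239, 1099, 2821 and 3128 on the 4 arrays and was 2.95-fold lower in wild-type mice fed Wy14643. The arginine carrier Slc7a2 read 151, 79.8, 198 and 250.2 and was 1.90-fold lower. Another of its probesets was 2.68-fold lower, and its dimmest had a log2 ratio of -0.19. The system A carrier Slc38a2 was 1.72-fold lower, and the glutamate carrier Slc1a2 read 23.9 on the control array and below background on the Wy14643 array, at least 1.78-fold lower. Slc38a4, a further system A carrier and the chromosomal neighbour of Slc38a2, read 4299, 4437, 3974 and 3938 by its brighter probeset and did not reach the threshold. By its other probeset it was 1.59-fold lower in wild-type mice. Slc3a2, the heavy subunit of the other family of heteromeric amino acid carriers, was 1.30-fold higher and also stayed below the threshold. The light subunit that pairs with Slc3a1, Slc7a9, was below background on every array.

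Metal and heme carriers were above background for 21 of 26 genes, and in wild-type mice Wy14643 put 2 above and 6 below the control, with a median of -0.25. The lower genes were the ZIP importers Slc39a14 and Slc39a8, the copper importer Slc31a1, the Golgi zinc carrier Slc30a5, the magnesium carrier Slc41a2 and the phagosomal metal carrier Slc11a1. Slc39a8 read 211, 63.6, 208 and 159 and was 3.32-fold lower, and Slc31a1 read 585, 225, 684 and 617 and was 2.60-fold lower. Slc39a4, Slc39a7 and Slc30a9 were within 1.5-fold, with log2 ratios of -0.32, -0.11 and 0.19. Slc11a1, which macrophages express, read 21.8, 14.0, 24.2 and 20.5, with log2 ratios of -0.64 in wild-type and -0.25 in PPARα-null mice, the latter within 1.5-fold. Of the 8 Kupffer cell markers counted, 7 were lower with Wy14643 in the wild type and 8 in the null mice, with median log2 ratios of -1.67 and -1.01. Their part in the Slc11a1 value was not tested. The zinc-binding metallothioneins, which are not carriers, were lower in wild-type mice as well. Mt1 read 2891, 1171, 2284 and 2345 and Mt2 1642, 407, 1430.2 and 1467 on the 4 arrays.

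In the phosphate and sulfate family 5 of 8 genes were above background, with 1 higher, 3 lower and a median of -1.08. The family held opposite ratios for closely related genes. Slc20a2 was 2.13-fold higher and Slc20a1 3.77-fold lower in the same wild-type livers. Slc17a2, Slc17a3 and Slc17a1 lie next to each other on chromosome 13, and their log2 ratios were -1.90, 0.07 and -1.08. Thus the middle gene of the cluster, at 690.3 and 726 on the wild-type arrays, lay flat between 2 lower ones. The sulfate anion exchanger Slc26a1, placed with the anion carriers, was 2.58-fold lower, and in that family of 4 counted genes Slc4a4 was the 1 higher gene.

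Among monocarboxylate and tricarboxylate carriers 4 of 10 genes were above background and lay apart, from -2.36 for Slc13a3 to 2.29 for Slc16a1 on the log2 scale. Slc16a7, another monocarboxylate carrier, read 757, 965, 637 and 874 and stayed below the threshold in both genotypes. Slc16a6 lay near background. Basigin (Bsg), the chaperone that brings the Slc16a1 protein to the cell surface, read 2021, 4458, 1954 and 2182, a Wy14643 difference of 2.21-fold upwards in wild-type mice and 1.12-fold in PPARα-null mice.

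Neurotransmitter and osmolyte carriers were counted for 6 of 12 genes in wild-type mice, with 3 lower, none higher and a median of -0.57. The betaine carrier Slc6a12 read 164, 66.8, 195 and 149.9 and its neighbour on chromosome 6, the GABA and taurine carrier Slc6a13, read 862, 403, 662 and 569. They were 2.45- and 2.14-fold lower in wild-type mice. By the probeset used, the taurine carrier Slc6a6 read 20.4 on the wild-type control array and below background on the wild-type Wy14643 array, at least 1.51-fold lower, while another dim probeset read 15.8 and 15.02 there and lay flat. Slc6a9, the glycine carrier, had a log2 ratio of 0.17.

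Sugar and polyol carriers, without the main hepatic glucose carrier, were counted for 8 of 17 genes, with 2 lower, none higher and a median of -0.42. Both lower genes were dim. The urate carrier Slc2a9 read 21.0, 11.6, 18.1 and 14.5 and was at least 1.56-fold lower, and the fructose carrier Slc2a5 read 14.9, 5.87, 20.0 and 14.4, for which the fold against background was at least 1.10. Slc2a1, the basal glucose carrier, read 49.0, 56.8, 64.1 and 75.3, with Wy14643 ratios of 0.21 and 0.23 in the wild-type and PPARα-null mice. The nucleoside family was represented by Slc29a1 and Slc43a3, the latter with a log2 ratio of -0.26, and the peptide family by the dim Slc15a2 (at least 1.33-fold lower) and Slc15a4 (-0.44). Slc47a1, which extrudes organic cations, read 2721, 1592, 2553 and 3032 and was 1.71-fold lower, and Slc8b1, a mitochondrial sodium calcium exchanger, was 1.71-fold lower.

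The nucleotide sugar, acetyl-CoA and sugar phosphate carriers, all of internal membranes, were above background for 17 of 22 genes. Wy14643-fed wild-type mice had 2 of them higher (11.8%) and 4 lower (23.5%), with a median of -0.09, against 15.2% and 16.3% of all genes. Slc33a1, the acetyl-CoA carrier of the endoplasmic reticulum, read 578, 205, 764 and 607 and was 2.82-fold lower. The UDP-galactose carrier Slc35a2 was 2.21-fold lower by its brightest probeset, whereas 2 of its 3 dimmer probesets had ratios of 0.22 and 0.02. Slc35a3 read 36.3, 70.6, 31.98 and 27.7 and was higher by both of its probesets. Slc35d1, at 901 and 848 on the wild-type arrays, lay flat. Of the 36 counted genes placed inside the cell, 3 were above (8.33%) and 8 below (22.2%) control in Wy14643-fed wild-type mice, with a median of -0.13. Of the 62 other carriers 6 were above (9.68%) and 23 below (37.1%), with a median of -0.26.

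Vitamin carriers were counted for 6 of 9 genes, among which the ascorbate carrier Slc23a2 read 46.8, 89.9, 42.6 and 41.9 and was the 1 higher gene. Slc23a1, the other ascorbate carrier, read 725, 501, 725 and 535, with log2 ratios of -0.53 and -0.44 in wild-type and PPARα-null mice. The thiamine carrier Slc19a2 and the folate carrier Slc46a1 had ratios of -0.21 and -0.18 in wild-type mice. The other probeset of Slc46a1, which may bind several transcripts, read 177, 106, 176 and 159 and was 1.66-fold lower there. No choline carrier reached the threshold in either genotype by its brightest probeset. Slc44a1 read 314, 361, 274 and 199.5, with log2 ratios of 0.20 in wild-type and -0.46 in PPARα-null mice. Its dim probeset read below background on the wild-type control array and 21.4 on the wild-type Wy14643 array. A further probeset of Slc44a2, which may bind several transcripts, was 1.68-fold lower in wild-type and 1.79-fold lower in PPARα-null mice. The cation-chloride cotransporters Slc12a2, Slc12a7 and Slc12a9 had ratios of 0.44, 0.60 and -0.46. Both urea carriers of the set were below background on every array.

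**Figure D2:**
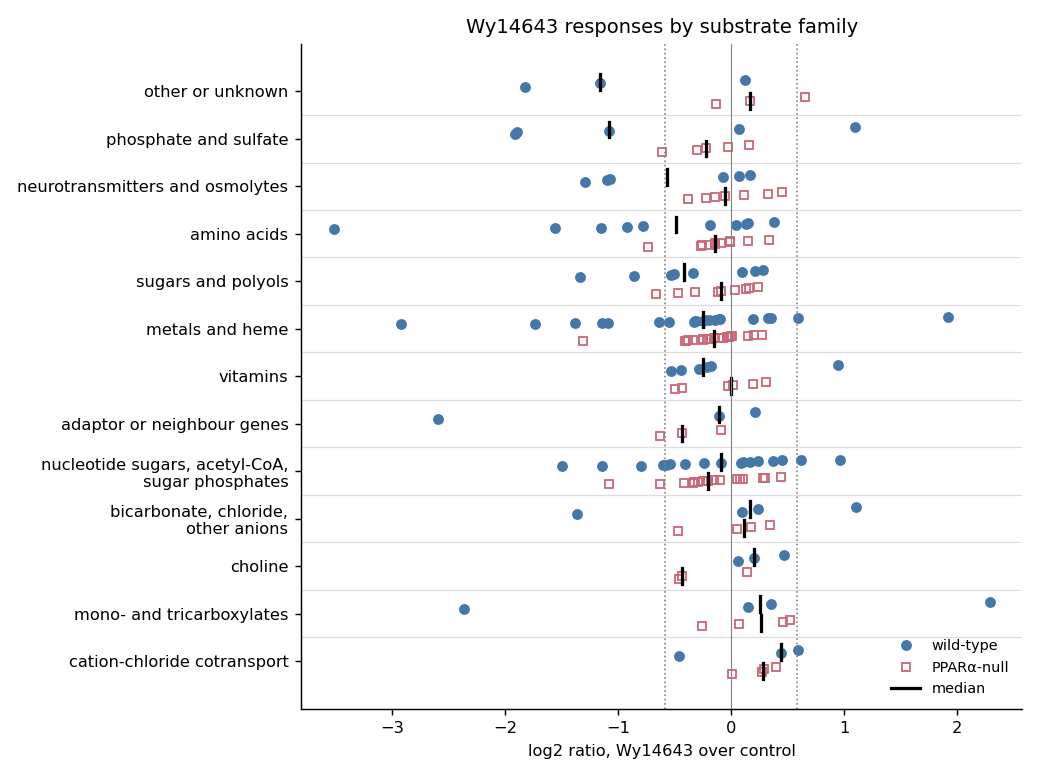
Log2 ratio of Wy14643 over control for each counted solute carrier, by substrate family with at least 3 genes counted in wild-type mice, with wild-type ratios as blue points, PPARα-null ratios as open squares, medians as black bars and the 1.5-fold thresholds as dotted lines. Wild-type points spread from -3.52 to 2.29, and PPARα-null squares stay between -1.31 and 0.65.

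In PPARα-null mice the same diet gave few differences. Of 105 genes counted, 1 was higher and 8 lower on Wy14643, against 2.34% higher and 4.52% lower over all 7346 genes, and the median was -0.09. The standard deviation of the log2 ratio across solute carriers was 0.34 here, against 0.92 in wild-type mice. Over all genes counted it was 0.33 here, against 0.89 for the wild type, so the narrower spread was not particular to solute carriers. The lowest ratio was that of the magnesium carrier Slc41a2, which read 48.4 in PPARα-null control mice and 19.5 in PPARα-null mice fed Wy14643, next to 33.3 and 15.6 in wild-type mice. It was thus 2.48-fold lower in the null mice and 2.13-fold lower in the wild-type mice. Slc35a1, the Golgi carrier of CMP-sialic acid, was lower in both genotypes, with readings of 65.3, 37.5, 78.5 and 37.2, although its other probeset reached 1.35- and 1.32-fold only. Slc10a2, the apical sodium-dependent bile acid carrier, read 46.3, 39.5, 27.5 and 14.9 and was 1.84-fold lower in the null mice and 1.17-fold lower in the wild-type mice. The others were Slc3a1 (1.67-fold), Slc45a3 (1.59-fold), Slc35b1 (1.55-fold), Slc17a1 (1.53-fold) and Slc9a3r1 (1.55-fold), of which Slc9a3r1 had a ratio of 0.03 by another probeset. The 1 higher gene was Slc46a3, which read 31.5, 14.1, 36.7 and 57.5 and was 1.57-fold higher in the null mice and 2.24-fold lower in the wild-type mice.

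All 9 solute carriers above control in wild-type mice fed Wy14643 lay between the thresholds in PPARα-null mice. Of the 32 lower ones, 25 lay between the thresholds, 5 were lower in the null mice too (Slc17a1, Slc35a1, Slc3a1, Slc41a2 and Slc9a3r1), and the rest were Slc46a3 and a gene below background in the null arrays, Slc15a2. Most genes of any kind lay between the thresholds in the null mice, 6842 of the 7346 counted, and 332 were lower. Some further probesets differed from this account. In PPARα-null mice the dimmer probesets of Slc31a1, Slc39a8, Slc35a3 and Slc20a2 were lower by 1.79-, 1.66-, 2.25- and 1.56-fold, and 1 probeset of Slc4a4 was higher by 1.58-fold.

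**Figure D3:**
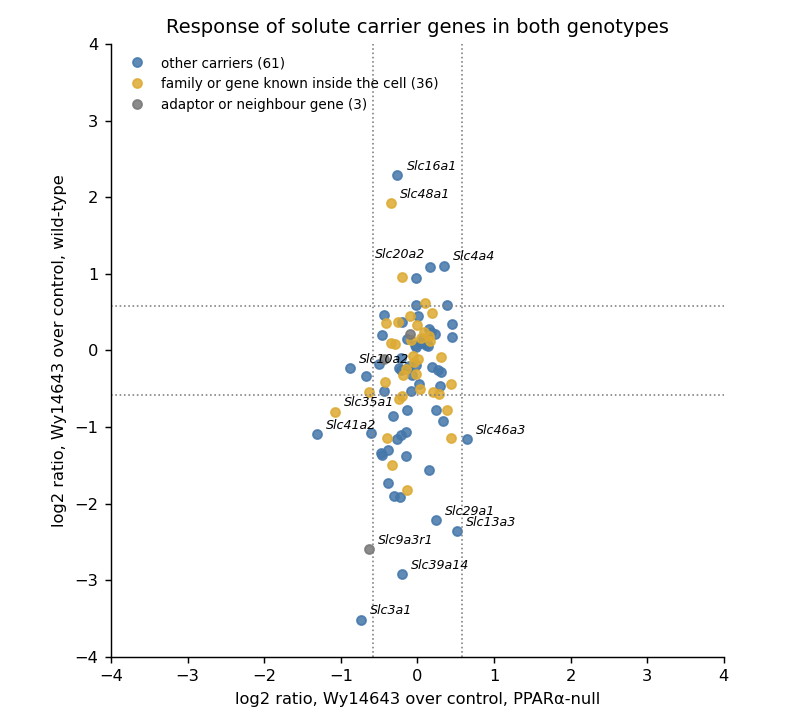
Log2 ratio of Wy14643 over control in wild-type mice (vertical axis) against that in PPARα-null mice (horizontal axis) for the 100 solute carriers counted in both genotypes, coloured by whether the gene is known to work inside the cell, with the 1.5-fold thresholds as dotted lines. Points spread vertically, with Slc16a1 at 2.29 and Slc3a1 at -3.52, and Slc41a2 and Slc35a1 lie low on both axes.

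The difference between the 2 responses was taken for each of the 106 solute carriers as the log2 ratio in wild-type minus that in PPARα-null mice. It reached 1.5-fold upwards in 12 and downwards in 32 genes, against 16.7% and 16.3% of 7687 genes. Slc16a1 (2.55), Slc48a1 (2.26) and Slc35a3 (1.16) had the largest positive differences. That of Slc48a1 rests on 1 probeset, as its other probeset had log2 ratios of -0.13 in wild-type and 0.09 in PPARα-null mice. Slc13a3 (-2.88), Slc3a1 (-2.78), Slc39a14 (-2.71) and Slc29a1 (-2.45) had the largest negative ones. With 1 array per group these differences have no test.

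On the control diet the genotypes were close. Of 102 genes counted, wild-type mice had 2 at a higher and 3 at a lower level, against 2.45% and 2.53% of 7228 genes, and the median was 0.00. Slc3a1 was 2.32-fold and Slc10a2 1.68-fold higher in wild-type mice. Slc20a1 (1.97-fold), Slc13a3 (1.93-fold) and Slc35a5 (1.51-fold) were lower. Slc13a3 was lower by its other bright probeset as well (1.66-fold), while the other 4 probesets of Slc35a5 were dim and within 1.5-fold. The other probeset of Slc20a1 was 1.32-fold lower and did not reach the threshold.

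With both genotypes on Wy14643, wild-type mice had 15 of 104 genes at a higher and 29 at a lower level, against 16.9% and 18.0% of 7521 genes, with a median of -0.10. This comparison shares the wild-type Wy14643 array with the diet comparison, and 7 of the 9 higher and 24 of the 32 lower genes of wild-type mice appear in it again. The share of all genes that appear again was not computed. The widest gap was in Slc13a3, 129 in wild-type against 1826 in PPARα-null mice, 14.2-fold lower, where it had been 1.93-fold lower on the control diet. Its other bright probeset was 5.05-fold lower. Slc39a14, Slc20a1 and Slc29a1 were 6.53-, 6.37- and 5.89-fold lower in wild-type mice. Slc16a1 was 5.31-fold and Slc48a1 4.17-fold higher, but the other probeset of Slc48a1 had a log2 ratio of -0.22. Slc10a2 was 2.65-fold higher in wild-type mice, with 39.5 against 14.9. The choline carriers Slc44a1 and Slc44a3 were 1.81- and 1.61-fold higher, and the dim probeset of Slc44a1 read 21.4 in wild-type mice and below background in null mice. Slc7a2 was 3.13-fold lower, with 79.8 in wild-type against 250.2 in null mice.

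**Figure D4:**
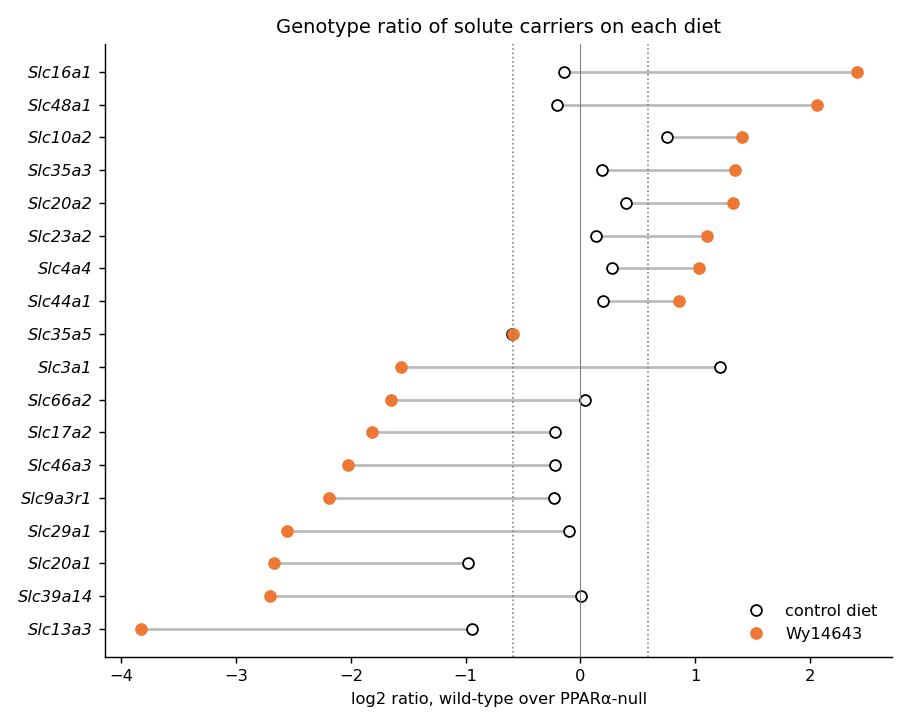
Log2 ratio of wild-type over PPARα-null mice on the control diet (open points) and on Wy14643 (filled points) for solute carriers with the largest genotype ratios on either diet, with the 1.5-fold thresholds as dotted lines. Filled points reach 2.41 for Slc16a1 and -3.83 for Slc13a3. Open points stay nearer 0 except for Slc35a5, whose open and filled points nearly coincide at -0.596 and -0.588. Slc3a1 is the gene whose points lie beyond the threshold on opposite sides, at 1.21 and -1.56.

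Proteins that bind, energise or regulate solute carriers, and genes of the amino acid and metal responses, were read from a separate list of 22 measured genes. In wild-type mice 20 were counted, with 3 higher (15%), 7 lower (35%) and a median of -0.07. Over all genes counted 15.2% were higher and 16.3% lower, so the higher share was near that of all genes. In PPARα-null mice 19 were counted, with none higher and 2 lower (10.5%), against 2.34% and 4.52% of all genes. The higher ones were Bsg, the kinase Oxsr1, which switches cation-chloride cotransport (1.85-fold), and the dim Asns. The lower ones included the sodium pump subunit Atp1b1 (1.82-fold), the scaffold Pdzk1 (1.69-fold) and the amino acid response factor Atf4 (1.55-fold). Txnip, which holds back glucose uptake, read 458, 51.0, 327 and 118, and the kinase Sgk1 read 196, 96.9, 268 and 112. These 2 were the genes of the list that were lower in both genotypes. For Txnip this is opposite to the study's Q-PCR, which reported a PPARα-dependent rise in liver with Wy14643 feeding. The cause of this disagreement was not tested.

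Where a solute carrier past the threshold had further probesets above background, they mostly shared its direction. In wild-type mice 18 such genes had 22 further probesets, of which 18 had the same direction and 14 reached 1.5-fold. Slc35a2, Slc35e1 and Slc48a1 were the genes with a further probeset in the opposite direction. For the genotypes on Wy14643, 26 of 31 further probesets in 21 genes had the same direction, and the exceptions were in Slc35a2, Slc38a10, Slc39a8 and Slc48a1. Slc39a8 in that comparison was 2.50-fold lower by the probeset used and had a log2 ratio of 0.22 by the other. For the genotypes on the control diet, 4 of 5 further probesets in 3 genes had the same direction, and 1 reached 1.5-fold. In PPARα-null mice 3 of 4 further probesets in 3 genes had the same direction, and 1 reached 1.5-fold.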

How the data were processed

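The 4 samples are pooled liver RNA, 1 array per group. The deposited values are intensities on a linear scale, from 1.55 to 31270.2, which the authors computed with GCRMA (2.20 in the submitters' notes), which removes background, equalises the arrays by quantile normalization and combines probes into probesets. Whether these 4 arrays were normalized alone is not given in the sources used here. The label text of the wild-type Wy14643 array repeats the control condition in 1 field, and its title and source name were followed.

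Of 22690 probesets, 64 controls were left out. GEO's platform annotation gave 1 symbol for 20380 probesets, several for 691 and none for 1555. No symbol needed updating. The probeset with the highest mean over the 4 arrays stood for a gene, and for 13 solute carriers (9 above background) this was an _x_at or _s_at probeset, which may bind several transcripts. Log2 ratios of the deposited intensities were taken, with no pseudocount. Where 1 of 2 arrays lay below background, the fold was taken against the background and written "at least". Counts and medians used the deposited readings, also those below background. Slc2a5 and Slc15a2 thus counted as lower in wild-type mice, although their folds against background stayed under 1.5. 1 array per group allows no test, and precision is limited by how few arrays there are.

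Solute carriers named are the 8 with the largest ratio in each direction past 1.5-fold for Wy14643 in wild-type mice and for the genotypes on Wy14643, the 4 for the other comparisons, and 2 to 4 per substrate family with at least 3 counted. Others named were chosen after their values were seen. Members and lists were chosen with earlier results of these data known. Substrate families and locations were assigned by hand from general knowledge. Of the solute carriers above background 81 matched a RefSeq promoter (GRCm38.p6). Alternatives were another background rule, added intensity, scaling, probeset rule and fold. The script was tested on simulated data. Python 3.11.15, numpy 2.4.6, pandas 2.3.3, matplotlib 3.10.9 and R 4.3.3 with limma 3.58.1 (cyclic loess) were used.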

Additional observations from a re-analysis of the deposited data

Results flagged for a closer look

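Slc3a1 stood out because its genotype ratio had opposite signs on the 2 diets. The log2 ratio of wild-type over PPARα-null mice was 1.21 on the control diet and -1.56 on Wy14643. Slc46a3 stood out because its response to Wy14643 had opposite signs in the 2 genotypes, with log2 ratios of -1.16 in wild-type and 0.65 in PPARα-null mice. With 1 array per group neither difference was tested. Slc3a1 read 13.8 and Slc46a3 14.1 on the wild-type Wy14643 array, both near the background of 13.5.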

How the results depend on the processing

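Of 100 counts recomputed under 11 settings, 84 stayed within 1.5 times of the value reported. Adding 32 to every intensity left 20 genes lower on Wy14643 in wild-type mice, 0 higher and 4 lower in PPARα-null mice, 1 higher between genotypes on the control diet, 8 higher and 19 lower between genotypes on Wy14643, and 7 higher and 21 lower for the difference of the responses. A threshold of 2-fold left 4 higher on Wy14643 in wild-type mice, 0 higher and 2 lower in PPARα-null mice, 1 higher and 0 lower between genotypes on the control diet, and 7 higher between genotypes on Wy14643. Centring the arrays left 5 lower in PPARα-null mice, and the median over the probesets of a gene left 1 lower between genotypes on the control diet. The cause of these shifts was not tested, except that a higher fold can only lower a count. Of 456 ratios of named genes, 454 kept their direction. The ratio of Slc9a3r1 in PPARα-null mice became 0.035 without probesets that may bind several transcripts and with the highest mean taken on the log2 scale. By the median over its probesets Slc35a2 had a ratio of -0.15 and Slc13a3 of -0.41 in wild-type mice, where their dim probesets entered. Centring and cyclic loess left 73 of 76 named ratios past 1.5-fold, and 32 added left 53. Signal near background limits the ratios of dim genes. No replicate could be left out, and no paired analysis was possible because each group had 1 array.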

Other observations

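Of the cell type markers not yet given, those of neutrophils separated 1 array, chiefly through S100a8 and S100a9. S100a8 read 12.9, 14.5, 15.7 and 105.8 on the 4 arrays in the order used above, and S100a9 read 14.0, 13.2, 17.6 and 104.6. Summed over 5 neutrophil markers the array of PPARα-null mice fed Wy14643 read 256 and the others between 55.1 and 63.8. Ngp and Elane read 17.7 and 15.4 on the array of PPARα-null mice fed Wy14643, near background, and Mpo was below background on every array. The stellate cell markers went apart between genotypes on Wy14643, with 6 of 7 counted genes lower in wild-type mice, among them Pdgfrb at 48.8 against 176 and Reln at 89.8 against 281. Lymphocyte markers (4 measured) and erythroid markers (3 measured) read 19.9 at most, and of 5 cholangiocyte markers Sox9 was above background. The part of these cells in any solute carrier ratio was not tested.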
